A study of Mus musculus with 13 samples.

Results

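The genes described here are the 3 clustered genes of the albumin family, Afp (alpha-fetoprotein), Afm (afamin) and Alb (albumin), in round spermatids and whole testis of mice that differ at Wfdc15a. They were picked by name from the 30479 genes of the deposited table, after their levels in these libraries had been seen, so their levels and differences are given as a description, with no p. Where members past the threshold of a fit over all genes are counted, the count rests on the values that chose them, and nothing is read from it in any comparison. All mice were at postnatal day 25. Round spermatids gave 3 libraries of Wfdc15a knockout (KO) mice, 2 of heterozygous (Het) and 2 of wild-type (WT) mice, each from 100 to 200 cells sorted with a DNA dye. Whole testis without its capsule gave 3 KO, 1 Het and 2 WT libraries from about 2 ng of total RNA each. The labels name neither the strain nor how the Wfdc15a allele was made, nor do they say whether 1 group's libraries are from different animals. Errors and p-values therefore describe the spread of these samples alone, and that spread may be technical. Smart-seq2, which reverse-transcribes full-length polyadenylated RNA without keeping strand, was used throughout.

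Albumin family proteins are secreted carriers that arose by gene duplication and sit side by side on 1 chromosome. Albumin is the main plasma protein of the adult liver. Alpha-fetoprotein is its fetal counterpart, made by yolk sac and fetal liver and shut off in liver after birth, and afamin binds vitamin E and carries Wnt proteins. In liver the genes are driven by factors that mark hepatocytes. In mouse liver Zbtb20 and Zhx2 repress Afp after birth.

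On chromosome 5 of build mm10 all 3 genes lay on the plus strand, Alb at 90460897 to 90476602, Afp at 90490737 to 90508907 and Afm at 90518932 to 90553543. The gap between Alb and Afp was 14134 bases and that between Afp and Afm 10024 bases. Gc, which encodes the vitamin D-binding protein and is a family gene but no member of the set, lay on the minus strand at 89417522 to 89457898, 1002998 bases from Alb. The promoter windows of the 3 members are shown because their levels are compared between the same libraries. Each window holds 250 bases before and 50 after the RefSeq start, 5′ to 3′, from RefSeq on GRCm38.p6. Capitals mark the TATA box TATAAA and the CCAAT box, on either strand.
Alb, chr5:90460620-90460919, plus strand: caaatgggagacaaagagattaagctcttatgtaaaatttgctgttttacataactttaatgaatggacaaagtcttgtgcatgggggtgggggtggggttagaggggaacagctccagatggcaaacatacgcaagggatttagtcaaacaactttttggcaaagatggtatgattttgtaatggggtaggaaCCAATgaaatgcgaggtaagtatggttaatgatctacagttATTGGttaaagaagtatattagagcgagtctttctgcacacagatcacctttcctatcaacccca
Afp, chr5:90490464-90490763, plus strand: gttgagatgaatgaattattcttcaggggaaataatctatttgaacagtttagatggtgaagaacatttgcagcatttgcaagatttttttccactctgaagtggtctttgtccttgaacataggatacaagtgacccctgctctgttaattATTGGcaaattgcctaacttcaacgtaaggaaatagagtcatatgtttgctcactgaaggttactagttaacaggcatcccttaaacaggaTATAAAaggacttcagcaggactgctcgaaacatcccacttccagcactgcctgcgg
Afm, chr5:90518699-90518998, plus strand: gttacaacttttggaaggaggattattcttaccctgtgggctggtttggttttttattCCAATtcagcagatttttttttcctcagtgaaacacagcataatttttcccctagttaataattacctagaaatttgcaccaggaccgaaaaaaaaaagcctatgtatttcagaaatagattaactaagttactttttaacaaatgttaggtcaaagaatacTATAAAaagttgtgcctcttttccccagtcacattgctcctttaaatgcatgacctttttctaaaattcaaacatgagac

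With positions counted from the RefSeq start to the first base of a match, TATAAA was found in Afp at -7 and in Afm at -30, and in neither Alb nor Gc. Of 32851 RefSeq promoter windows of the same length, 13.6% hold it. The GENCODE M21 start of Afp lies 23 bases after the RefSeq start, and that of Afm 17 bases before it. CCAAT was found in Alb at -56 and -15, in Afp at -98, in Afm at -192 and in Gc at -225, against 37.4% of windows. No marked motif overlaps another. The cAMP response element core TGACG was in none of the windows of the 3 members or Gc, and 20.8% of windows hold it. The half-site GTTAAT of the liver regulator HNF1 was also planned but was left out of the search. Its letters stand unmarked in the windows of Alb, Afp and Afm, and the share of all windows holding them was not computed. These matches describe letters and are not binding sites.

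Library totals ran from 10825690 to 20927428 reads in round spermatids and from 7375270 to 18438704 in testis. Levels are RPM, the reads of a gene scaled to the library total. A count of 0 allows up to 3 reads, or 0.143 to 0.407 RPM depending on the library, by counting error alone. Reads had no molecular identifiers and do not count molecules. The libraries fell into 2 sets in each cell type: KO replicate 1 stood with both WT libraries (set 1), and KO replicates 2 and 3 with the Het libraries (set 2). The leading principal component that separated them held 55.6% of the variance in round spermatids and 71.6% in testis. In round spermatids the summed level of 8 stromal markers was 3.06 to 5.55 RPM in set 1 and 484 to 1072 RPM in set 2. The summed level of 9 Sertoli cell markers was 7.01 to 11.4 RPM in set 1 and 70.6 to 187 RPM in set 2. All 17 listed round spermatid markers were tested between WT round spermatids and WT testis, and by limma 6 were higher and 0 lower, where 11.5% of 20085 genes were called. Of the 17 differences 6 were negative, down to -2.36 for Prm1, a late spermatid gene, which was at 150 and 152 RPM in WT round spermatids and 1106 and 546 RPM in WT testis. The part of the stromal and Sertoli cell RNA in the results for Afp and Afm was not tested. Wfdc15a itself was at 97.9, 67.4 and 48.1 RPM in KO, 65.0 and 71.5 RPM in Het, against 267 and 234 RPM in WT round spermatids. Its testis levels were 116, 36.8 and 44.3 RPM in KO, 48.4 RPM in Het, against 212 and 207 RPM in WT, so reads were counted for it in the KO libraries as well.

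Afp and Afm were detected in every round spermatid library, highest in WT and lowest in Het, while Alb was near 0. Afp was at 13.5, 24.7 and 5.11 RPM in KO, 1.27 and 2.22 RPM in Het, against 41.9 and 31.9 RPM in WT round spermatids. Afm was at 13.8, 24.0 and 5.25 RPM in KO, 0.999 and 2.31 RPM in Het, against 42.9 and 32.6 RPM in WT. For both genes the KO libraries spread widely, and each of them lay below both WT libraries. The Het libraries lay below the WT libraries by more than the spread within either group. No germ cell marker passed limma's threshold in KO minus WT or Het minus WT, where 0% of all genes did. The median difference over all genes was +0.23 in Het minus WT and +0.03 in KO minus WT. Of 17 round spermatid markers 15 had a negative difference in Het minus WT (median -0.40) and 14 in KO minus WT (median -0.49). Their summed level was 2004 to 3013 RPM in KO, 2318 and 2401 RPM in Het, against 3472 and 3338 RPM in WT round spermatids. Of 9 spermatocyte markers 9 had a positive difference in Het minus WT (median +1.31) and 8 in KO minus WT (median +0.68). The part of these shifts in the levels of Afp and Afm was not tested. In bulk samples such as these, fewer cells of a type and less RNA per cell cannot be told apart.

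**Figure D1:**
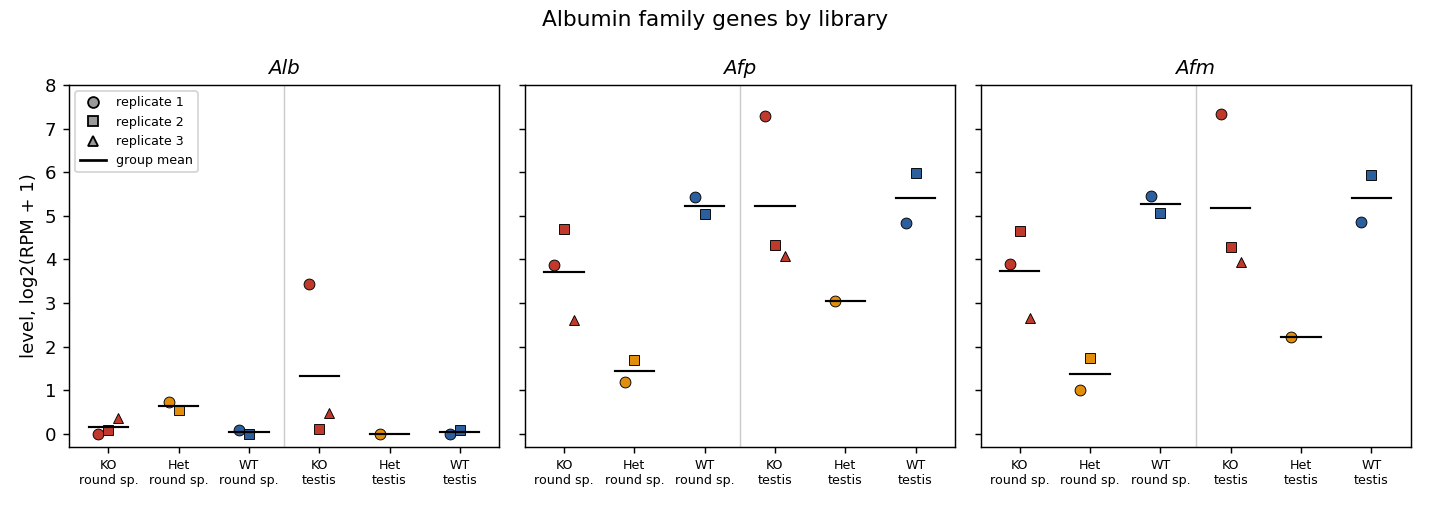
Level of Alb, Afp and Afm as log2(RPM + 1) on the vertical axis in each of the 13 libraries, grouped by genotype in round spermatids (round sp., left of each panel) and testis (right). Symbols are libraries, by replicate number, and bars are group means; Afp and Afm are highest in KO testis replicate 1, at 156 and 160.0 RPM, and Alb is near 0 outside that library.

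On the log2(RPM + 1) scale, which understates changes of low genes, KO minus WT in round spermatids was -1.51 (SE 0.55) for Afp and -1.54 (SE 0.55) for Afm. Het minus WT was -3.80 (SE 0.60) for Afp and -3.90 (SE 0.60) for Afm. Group means of Afp were 14.5 ± 9.84 RPM in KO (SD, n = 3), 1.74 ± 0.673 RPM in Het and 36.9 ± 7.08 RPM in WT (SD, n = 2 each). Of the 3 members, 2 reached 1 RPM in at least 2 round spermatid libraries and were in the fit, and neither passed limma's adjusted threshold of 0.05 in KO minus WT or in Het minus WT. The background was 0% of 18075 genes called in each of these comparisons. At an unadjusted p under 0.05, limma had 3813 genes in KO minus WT and 4542 in Het minus WT, and voom on the recovered reads called 0 in both. Every KO library lay below every WT library for 2 members, as did 19.4% of all genes tested, and every Het library lay below every WT library for 2 members, as did 23.2%. Without KO replicate 1, both members and 5514 genes in all passed in KO minus WT, and both members and 4739 genes in Het minus WT; without KO replicate 3, both members and 1156 genes passed in Het minus WT.

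The KO round spermatids stood with WT in set 1 and with Het in set 2, on a principal component and not by any label. In set 1, Afp was at 13.5 RPM in the KO library and averaged 36.9 RPM in WT, a difference of -1.37 on the log2(RPM + 1) scale. In set 2, Afp averaged 14.9 RPM in the 2 KO libraries and 1.74 RPM in Het, a difference of +2.22 on the same scale. The KO libraries were thus below WT in set 1 and above Het in set 2. Afm gave the same directions, with differences of -1.37 in set 1 and +2.28 in set 2. Since all WT libraries were in set 1 and all Het libraries in set 2, those libraries alone cannot tell genotype and set apart for Het against WT. With the set as a covariate, Het minus WT was -3.59 for Afp and -3.66 for Afm. That estimate rests on the KO libraries, with 1 of them in set 1. It also takes the set difference to be the same in every genotype, which was not tested.

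Alb, the gene nearest to Afp on the 5′ side, had few or no reads in round spermatids. It had 0, 1 and 4 reads in the KO, 10 and 5 reads in the Het and 1 and 0 reads in the WT libraries. The Het libraries held the most, at 0.666 and 0.462 RPM, and the KO and WT libraries were at or under 0.284 RPM. The levels per transcript length set the members apart: in WT round spermatids Afp averaged 17.9 ± 3.43 and Afm 18.5 ± 3.56 RPM per kb, against 0.0144 ± 0.0203 RPM per kb for Alb (SD, n = 2). The transcripts used for length were of 2063 bases for Afp, 2038 for Afm and 2034 for Alb, each with 15 exons.

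In whole testis Afp and Afm were present in all 6 libraries, and 1 KO library stood far above the others. That library, KO replicate 1, was also the shallowest of all 13, at 7375270 reads. Some genes of the other KO testis libraries had no read in it, such as Cox18 (0 against 15.5 and 20.8 RPM). Others, such as Sycp1 (222 against 299 and 284 RPM), were kept. The part of depth and of such losses in its Afp, Afm and Alb levels was not tested. Afp was at 156, 19.1 and 15.9 RPM in KO, 7.29 RPM in the single Het library, against 27.7 and 61.6 RPM in WT testis. Afm was at 160.0, 18.6 and 14.2 RPM in KO, 3.65 RPM in Het, against 27.98 and 60.6 RPM in WT testis. KO replicate 1 was the highest of all 13 libraries for both genes, and KO replicates 2 and 3 lay below both WT libraries, so the KO and WT groups overlapped. KO minus WT was -0.17 (SE 1.05) for Afp and -0.22 (SE 1.09) for Afm on the log2(RPM + 1) scale. Without KO replicate 1 these values were -1.20 and -1.29, and with the set as a covariate they were +1.89 and +1.93. In both of these fits the count of members past the threshold was 2, from which nothing is read, and 11976 genes passed without that library and 6992 with the set as a covariate. Neither of the 2 members tested passed the adjusted threshold, against a background of 0% of 18570 genes. Limma gave 4380 genes at an unadjusted p under 0.05 here, and voom called 0.

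Within set 1 of the testis libraries, Afp was at 156 RPM in KO replicate 1 and averaged 44.6 RPM in WT, 3.50-fold as high. Within set 2 it averaged 17.5 RPM in KO and was at 7.29 RPM in the Het library, 2.40-fold as high. For Afm the folds were 3.61 in set 1 and 4.50 in set 2. In both sets the KO libraries were thus higher than the other genotype of their set on average, each time with 1 library on 1 side.

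Alb had 72, 1 and 6 reads in KO testis, 0 in the Het library and 0 and 1 in WT testis. KO replicate 1 alone reached 1 RPM, at 9.76 RPM. No count of 0 shows absence: in the Het library it allows up to 0.288 RPM. The same KO library also held the most erythroid RNA, with a summed level of 6 erythroid markers of 486 RPM against 6.40 to 73.1 RPM in the other 5 testis libraries. Its summed level of 12 hepatocyte and yolk sac markers was 7.32 RPM, against 31.3 to 40.6 RPM in the testis libraries of set 2 and 6.996 and 9.19 RPM in WT. Fgg at 3.66 RPM, Ahsg at 2.58 RPM and Hnf4a at 1.08 RPM made up that sum, and the other 9 of the 12, among them Ttr, Apoa1 and Apob, were at 0 in it. Ahsg was at 0 in both WT testis libraries. The part of blood or other tissue RNA in the Alb, Afp and Afm levels of that library was not tested.

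Ordered by mean, the level of Afp was 63.7 ± 80.1 RPM in KO testis, 44.6 ± 24.0 in WT testis, 36.9 ± 7.08 in WT round spermatids, 14.5 ± 9.84 in KO round spermatids, 7.29 in the Het testis library and 1.74 ± 0.673 in Het round spermatids (SD, n = 3 for KO, n = 2 for the other groups with an error). KO testis, WT testis and WT round spermatids overlapped each other's range, and the Het testis value fell inside the range of KO round spermatids. Afm kept the same order of groups.

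The sorted cells were also compared with whole testis of the same genotype, which asks where in the tissue the transcripts lie. Round spermatids minus testis in WT was -0.17 (SE 0.99) for Afp and -0.14 (SE 1.01) for Afm on the log2(RPM + 1) scale. In KO it was -1.51 (SE 0.81) for Afp and -1.46 (SE 0.83) for Afm. WT round spermatids thus held these transcripts at an RPM within the spread of WT testis. Of the 2 members tested, 0 were called in WT, where 11.5% of 20085 genes were, and 0 in KO, where 2.36% were. Without KO testis replicate 1 the KO differences were -0.48 for Afp and -0.39 for Afm. The KO effect in round spermatids minus the KO effect in testis was -1.34 (SE 1.27) for Afp and -1.32 (SE 1.31) for Afm, with 0 of 2 members and 2.13% of all genes called.

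**Figure D2:**
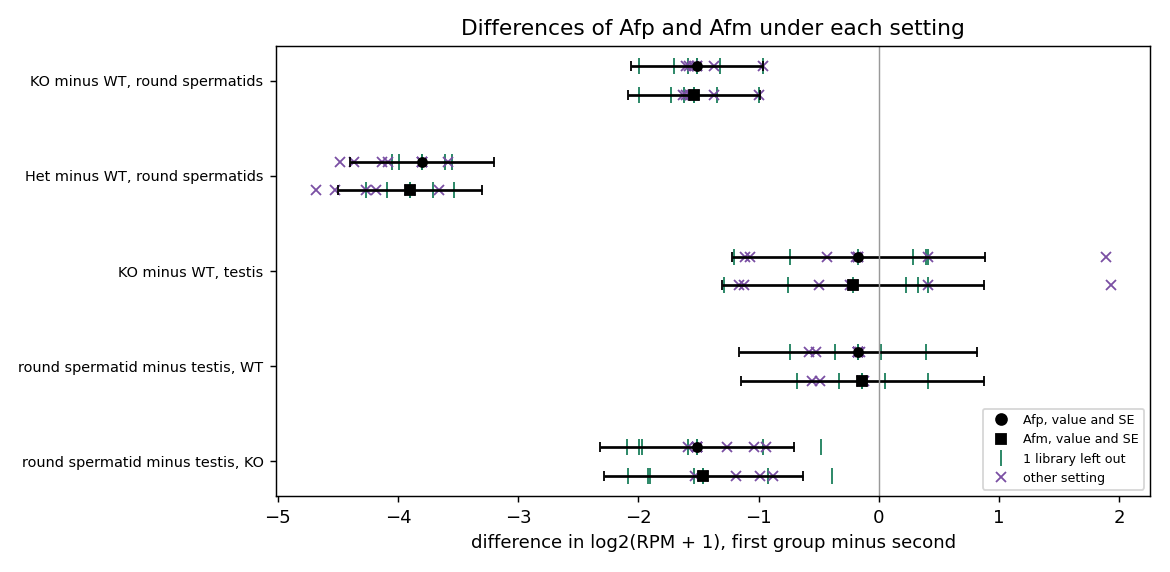
Differences of Afp (circles) and Afm (squares) in log2(RPM + 1) on the horizontal axis for 5 comparisons, with bars of 1 SE, ticks for fits with 1 library left out and crosses for other settings. The Het minus WT values of round spermatids stay below -3.5, while the KO minus WT values of testis lie on both sides of 0.

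Afp and Afm were counted almost read for read across the libraries. In round spermatids Afm against Afp had 289 against 283, 410 against 422 and 74 against 72 reads in KO, 15 against 19 and 25 against 24 in Het, and 734 against 718 and 665 against 651 in WT. In testis Afm against Afp had 1180 against 1152, 237 against 243 and 225 against 251 reads in KO, 38 against 76 in Het and 516 against 510 and 956 against 973 in WT. The difference was under 1 counting error, taken as the square root of the summed reads, in 11 of 13 libraries. The exceptions were KO testis replicate 3, at 1.19 counting errors, and the Het testis library, at 3.56. In that Het library Afm held 33.3% of the summed reads, with an exact 95% Clopper-Pearson interval of 24.8% to 42.8% that covers counting error only. In the other 12 libraries the interval held 50%.

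**Figure D3:**
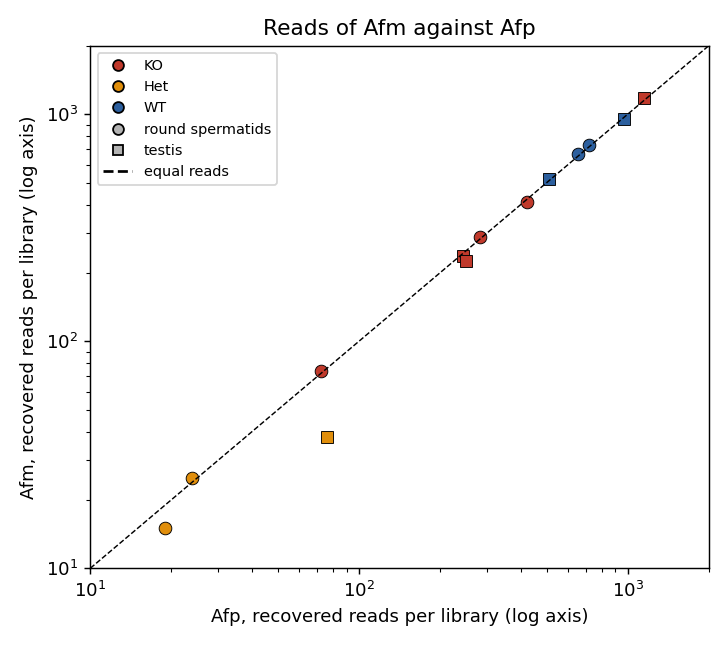
Recovered reads of Afm (vertical, log axis) against recovered reads of Afp (horizontal, log axis) in the 13 libraries, with KO, Het and WT by colour, round spermatids as circles and testis as squares, and a dashed line of equal reads. The points follow the line over a 123-fold range of the Afp level, and the Het testis library, at 38 against 76 reads, lies below it.

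While the ratio held, the levels moved widely, over a 123-fold range of RPM for Afp and 160-fold for Afm. The log2 ratio of Afm over Afp had an SD of 0.29 over the 13 libraries, and of 0.11 without the Het testis library. For neighbouring genes on 1 strand with no overlap and a mean of at least 100 reads each, of which there were 5647 pairs, the median SD was 1.31, and 30 pairs had a smaller SD than Afp and Afm. These SDs were computed with 0.5 read added to each count, which gave 0.29 for Afp and Afm. The annotated exons of Afp and Afm shared 0 bases, and their transcripts were 58.2% identical over aligned bases, with a longest identical run of 13 bases. Of the 31-base words of the Alb, Afp, Afm and Gc transcripts, 0 occurred in a transcript of another gene. The gene Gm43449 on the opposite strand lies across the 3′ part of Afp but shares 0 exonic bases with it, whereas Gm42109 shares 108 exonic bases with Afm, and unstranded reads there cannot be told apart. Whether the same fragments were counted for both Afp and Afm was not tested, since reads were not used here.

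By the root mean square difference of centred log2(RPM + 1) over the 13 libraries, the gene most like Afp among 20085 was Afm, at 0.23, and only that gene was closer than 0.5. The next were Mt2, a metallothionein, at 0.84, Polr2k, an RNA polymerase subunit, at 0.85, and Anapc13, a subunit of the anaphase-promoting complex, at 0.87. The value for Afp against its own mean was 1.64. For Afm the next after Afp were Mt2 at 0.90 and Atp5k at 0.91. For Alb they were Olfr1511 at 0.29 and Klhl31 at 0.38, against 0.89 for Alb alone, and both were highest in KO testis replicate 1. The points share libraries and depth, so the values are descriptions.

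Of the 24 other genes within 1 Mb, 6 had a mean of at least 1 RPM and 4 had no read in any library. Ankrd17, 94319 bases from Alb on the 5′ side, was at 10.9, 27.7 and 12.4 RPM in KO, 35.8 and 27.4 RPM in Het, against 15.4 and 7.16 RPM in WT round spermatids. Its mean was highest in Het, where that of Afp was lowest, but KO replicate 2 lay above Het replicate 2. Mthfd2l, a mitochondrial folate enzyme, was at 31.3, 31.3 and 30.0 RPM in KO, 16.0 and 27.2 RPM in Het, against 28.2 and 34.9 RPM in WT round spermatids. Albfm1, a family-like gene 7563 bases after Afm, peaked at 1.60 RPM. Of the neighbours tested, 0 of 7 passed limma's threshold in either genotype comparison of round spermatids, 0 of 8 in testis and 0 of 9 in the comparisons of round spermatids with testis. Over all genes 0% passed in each genotype comparison, 11.5% between WT round spermatids and WT testis and 2.36% between the KO groups, so these counts set no neighbour apart. Gc had no read in Het round spermatids and at most 1.34 RPM in any library.

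**Figure D4:**
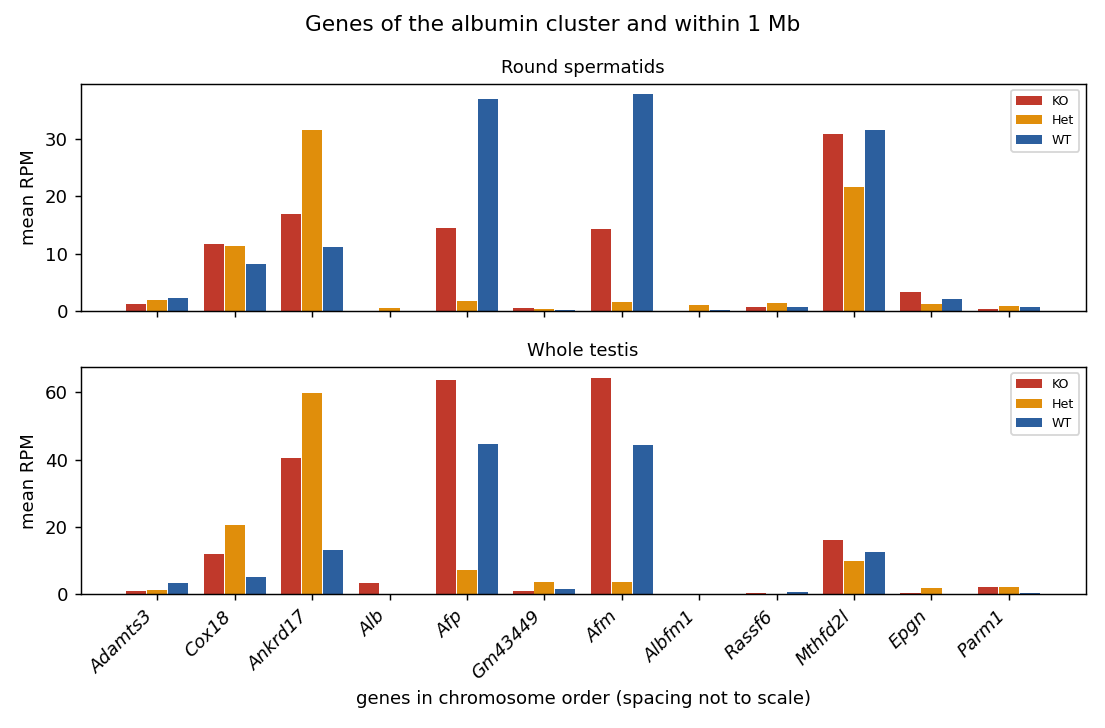
Mean level in RPM (vertical, from 0) of Alb, Afp, Afm and neighbouring genes within 1 Mb, in chromosome order, for KO, Het and WT round spermatids (upper) and testis (lower, with 1 Het library). Bars are group means without error bars, and the values by library are in the text; in WT round spermatids Afp and Afm reach 36.9 and 37.7 RPM while Alb and Albfm1 stay near 0.

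Among 14 listed regulators of albumin family genes in liver, 7 were tested in round spermatids. In KO minus WT and in Het minus WT 0% of all genes passed, and 0 of these 7 regulators. Their median difference was -0.08 in KO minus WT and +0.23 in Het minus WT, against +0.03 and +0.23 over all genes. Hnf4a, a nuclear receptor of hepatocytes, was at no more than 3.10 RPM, and Foxa2, a forkhead factor, had 0 reads in every library.

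Zbtb20, the repressor of Afp in mouse liver, was at 12.3, 26.9 and 21.2 RPM in KO, 43.4 and 45.7 RPM in Het, against 21.6 and 20.6 RPM in WT round spermatids. Among round spermatids Zbtb20 was highest in Het, where Afp and Afm were lowest, but Het minus WT did not pass (+1.04, SE 0.37, limma adjusted p = 0.126). KO replicate 1 was below both WT libraries for Zbtb20 and for Afp alike. Testis levels of Zbtb20 were 61.6, 83.5 and 87.1 RPM in KO, 111 RPM in Het, against 9.55 and 11.7 RPM in WT. The Het testis library held the most Zbtb20 and the least Afp of testis. KO testis replicate 1, with more Zbtb20 than WT, held the most Afp (156 RPM). Zhx2 was at 0.0478, 3.75 and 2.20 RPM in KO, 4.33 and 2.31 RPM in Het, against 2.22 and 2.99 RPM in WT round spermatids. Whether either repressor bears on Afp here was not tested. Zbtb20 was lower in KO round spermatids than in KO testis by a log2 difference of -1.94 (SE 0.33, limma adjusted p = 0.0214). It was the 1 of 8 listed regulators tested that passed there, where 2.36% of all genes did.

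**Figure D5:**
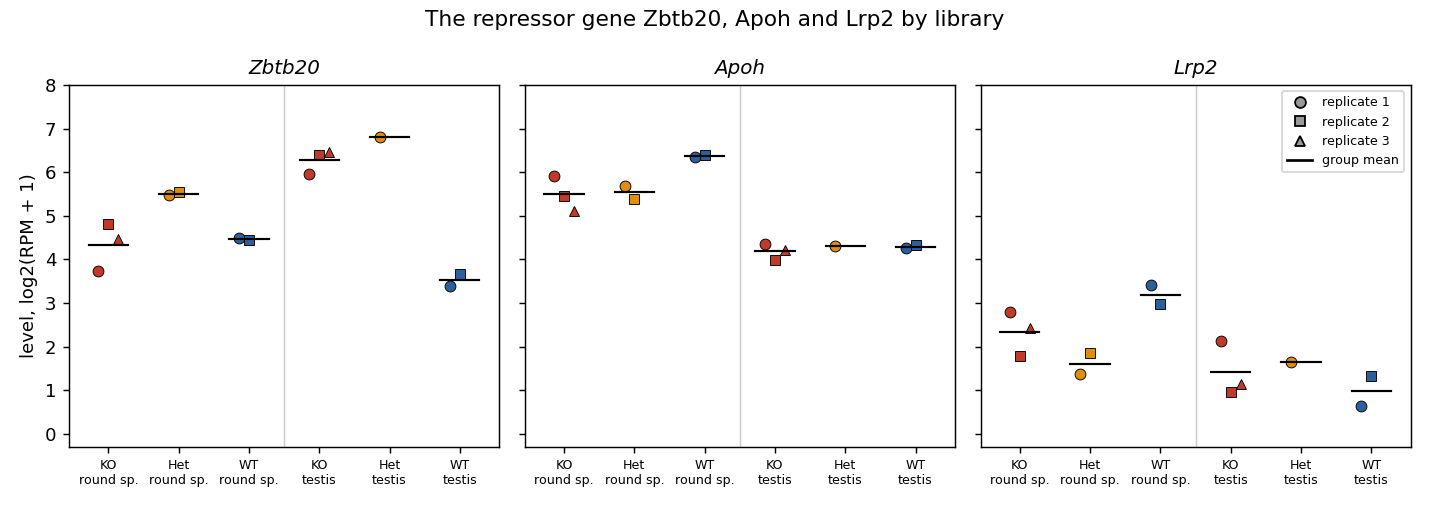
Level as log2(RPM + 1) on the vertical axis of Zbtb20, the plasma protein gene Apoh and the receptor gene Lrp2 in each of the 13 libraries, grouped as KO, Het and WT round spermatids (round sp.) and then testis; symbols are libraries and bars are group means. Zbtb20 is highest in the Het library of testis, at 111 RPM, and Apoh is at 33.6 RPM or more in round spermatids and at 19.5 RPM or less in testis.

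Of 48 listed liver plasma protein genes, 18 were tested in round spermatids. In either genotype comparison 0% of all genes passed, and 0 of these 18. Their median differences were -0.15 in KO minus WT and +0.14 in Het minus WT, against +0.03 and +0.23 over all genes. Between WT round spermatids and WT testis 2 of 21 passed, where 11.5% of all genes did, so the count is near the background. Both were higher in round spermatids, namely Apoh by 2.09 (SE 0.36, limma adjusted p = 0.00420) and Mup3 by 1.24 (SE 0.36, limma adjusted p = 0.0493). Apoh, which encodes a plasma lipoprotein component, was at 59.4, 43.1 and 33.6 RPM in KO, 50.3 and 41.0 RPM in Het, against 80.8 and 83.6 RPM in WT round spermatids. Its testis levels were 19.5, 14.8 and 17.6 RPM in KO, 18.7 RPM in Het, against 18.1 and 19.1 RPM in WT. Apoh was thus another liver plasma protein gene with reads in every round spermatid library. In KO round spermatids against KO testis, where 2.36% of all genes passed, Apoh was higher by 1.31 (SE 0.30, limma adjusted p = 0.0461) and Ahsg, a fetal plasma glycoprotein gene, differed by -1.88 (SE 0.39, limma adjusted p = 0.0358).

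All 7 listed genes of albumin uptake and recycling were tested, and 0 passed in a genotype comparison, where 0% of all genes did. Lrp2, which encodes the endocytic receptor megalin, was at 5.93, 2.46 and 4.33 RPM in KO, 1.60 and 2.59 RPM in Het, against 9.70 and 6.82 RPM in WT round spermatids. It was higher in WT round spermatids than in WT testis by 2.21 (SE 0.61, limma adjusted p = 0.0389). Lrp2 was the only 1 of the 7 listed genes to pass there, where 11.5% of all genes did. Cubn, which encodes its partner cubilin, was at 8.84, 11.4 and 7.88 RPM in KO, 6.66 and 5.54 RPM in Het, against 9.70 and 7.31 RPM in WT round spermatids, and its difference from WT testis was -0.13 (SE 0.50, limma adjusted p = 0.935). Fcgrt, the gene of the receptor that recycles albumin, was at 0, 5.21 and 12.4 RPM in KO, 6.86 and 5.17 RPM in Het and listed at 0 in both WT round spermatid libraries. Among the round spermatid libraries it thus had reads in the 4 of set 2 and in none of set 1. Testis did not show that split: Fcgrt was at 12.3, 15.5 and 18.2 RPM in KO and 13.4 RPM in Het, against 0.434 and 0 RPM in WT.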

How the data were processed

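The authors deposited 1 table of log2 RPM (reads of a gene scaled to the library total) for 13 libraries. Per the submitters' processing notes, FastQC 0.11.8, Trim Galore 0.6.6, HISAT2 2.1.0 and build mm10 were used; which program counted reads, and on which annotation, was not given in the sources used here. From the values, each deposited log2 value is a whole number of reads over a library total, with 0.9 read standing for 0, and between 99.797% and 99.997% of values came out whole within 0.01 read. Coordinates of the named family genes are identical to GENCODE M21.

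RPM were recovered from the log2 values and tested as log2(RPM + 1) where 2 or more libraries of the fit reached 1 RPM. The fit was limma 3.58.1 (R 4.3.3; lmFit, eBayes with trend), two-sided, with Benjamini-Hochberg adjustment over all genes at 0.05. Round spermatids (7 libraries) and testis (6) were fitted apart, and all 13 together for comparisons between them. The fits were tested on simulated data. Motifs, sequence identity and figures used Python 3.11.15, with Biopython 1.88 for alignments.

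Members and lists were chosen with earlier results of these data known. Named genes were the members, Gc and Wfdc15a, neighbours over 1 RPM or nearest, the 5 genes most like each member, and of each list the 4 highest by mean and any called; some genes the rule names are not reported here; other genes named were chosen after their values were seen. Alternatives were a pseudocount of 0.1 RPM, no filter, a minimum mean of 5 RPM, centred or quantile-normalized libraries, voom on recovered reads, a replicate block, the library set as a covariate, and each library left out in turn. A block within genotype across cell types was added after seeing the data. Deviations of same-numbered KO round spermatid and KO testis libraries correlated at 0.504, 0.283 and 0.403, each over 0.1. These numbers were therefore used as pairing in that block (the paired block), from the data and not from the labels. For KO testis replicate 2, however, the best match was KO round spermatid replicate 3. In both cell types KO replicate 1 was in set 1 and KO replicates 2 and 3 in set 2. A pairing of animals and the split into sets thus cannot be told apart here. In the other comparisons same-numbered libraries did not pair, WT round spermatids with WT testis among them (correlation -0.0233). The paired block nevertheless joined same-numbered WT libraries as well, so its WT results and its difference of KO effects rest on an unfounded pairing.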

Additional observations from a re-analysis of the deposited data

Results flagged for a closer look

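3 listed genes had a KO effect in round spermatids that differed from the KO effect in testis, by limma's interaction term with adjusted p-values over all genes. In that comparison 2.13% of 20085 genes passed, so the count of 3 does not set the lists apart from the rest of the table. The difference was -2.87 on the log2 scale for Zbtb20, the repressor of Afp in liver (SE 0.52, adjusted p = 0.0261). It was -2.01 for Spaca1, an acrosome membrane gene of spermatids (SE 0.40, adjusted p = 0.0321). For Sycp1, a synaptonemal complex gene of meiosis, it was -4.09 (SE 0.62, adjusted p = 0.0174). With libraries centred on their median, 0 genes of the table passed in that comparison. The KO effects of Zbtb20 were -0.13 (SE 0.34) in round spermatids and +2.75 (SE 0.42) in testis.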

How the results depend on the processing

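The number of members called was 0 of 2 in all 6 comparisons. With 1 library left out it ran from 0 to 2 for KO minus WT in round spermatids (2 without KO replicate 1), from 0 to 2 for Het minus WT (2 without KO replicate 1 or 3) and from 0 to 2 for KO minus WT in testis (2 without KO replicate 1). It was 2 for Het minus WT with centred or quantile-normalized libraries and 2 for KO minus WT in testis with library set in the model, and 0 in the other comparisons under every setting run. With the replicate number as a block it was 2 for Het minus WT, and the block changed no other members' call; Afp in KO minus WT was then -0.96 in round spermatids and +0.41 in testis. The causes were not tested. Counts over all genes moved more: for KO minus WT in round spermatids 0 against 4 centred, 89 with the set and 0 to 5514 with 1 library left out; for Het minus WT 0 against 440 centred, 837 quantile-normalized, 1589 with the block and 0 to 4739; for KO minus WT in testis 0 against 152 with the block, 6992 with the set and 0 to 11976. For WT round spermatids minus testis 2305 against 1182 centred, 4915 with the set and 670 to 5966; for KO 474 against 254 with the smaller pseudocount, 728 with the mean filter, 932 centred, 749 quantile-normalized, 4201 with the set, 987 with the paired block and 18 to 8039; for the difference of KO effects 428 against 849 with the mean filter, 0 centred, 1 quantile-normalized, 2773 with the set and 0 to 6211. Afp in round spermatids kept its sign in 15 of 15 alternatives for KO minus WT, between -2.00 and -0.96. With 1 Het testis library and 1 KO library in set 1, depth and sample number limit the set comparisons.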
